A study of Homo sapiens with 4 samples.

Results

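Ephrins and Eph receptors were followed in single cells of MCF10A, an untransformed human mammary epithelial cell line that here carried a GFP marker on histone H2B. The set holds 10 genes, chosen by name: the receptors EPHA2, EPHB2, EPHB3, EPHB4 and EPHB6 and the ligands EFNA1, EFNA3, EFNA5, EFNB1 and EFNB2. All 10 had a row in every plate, among 19577 genes with a row in at least 1 plate. Cells were grown for 6 days as a circular patch on fibronectin in medium with serum, EGF, hydrocortisone, cholera toxin and insulin, then phototagged, sorted live and sequenced. In 2 low-resolution plates the patch had been tagged in rings of 1000 to 1500 μm, and in 2 high-resolution plates in an outermost band of 250 μm, the next 250 μm and the inside. All 4 plates thus share line, medium, culture time and both dyes (JF646 and JF549), and they differ in the width of the tagged bands from which cells were sorted. The patch is a 2D model of one line without stroma or vessels. Which region a well came from was not analysed here. Every value is for all kept cells of a plate, and the mix of regions in a plate follows from the sort.

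Eph receptors form the largest family of receptor tyrosine kinases, and their ligands, the ephrins, are bound to the membrane of the neighboring cell. Ephrin-A ligands are held by a lipid anchor and bind mostly EphA receptors, while ephrin-B ligands span the membrane and bind mostly EphB receptors, and signals pass into both the receptor-bearing and the ligand-bearing cell. In epithelia these contacts are known for cell sorting at boundaries, adhesion and repulsion between migrating cells. EPHB6 stands apart because its kinase domain is inactive.

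Each replicate is 1 plate of 384 wells, sequenced by SORT-seq, in which each transcript is counted at its 3′ end by a unique molecular identifier (UMI). Gene length does not enter such counts, so levels of different genes can be set side by side. The deposited values are expected counts, the distinct UMIs corrected for identifiers drawn more than once. A well counted as a cell if it held 2000 to 9000 features and less than 40% of its counts were mitochondrial, which left 271 to 293 cells per plate and 1146 of 1536 wells in all. The plates held 11709628 to 14992348 transcripts with spike-ins, and the median cell held 30118 to 40893 without them. The 384 well labels recur in every plate. Of the epithelial markers, KRT5 lay at 1757 to 2315 counts per 1000000 counts (CPM) and KRT7 at 2601 to 3840 CPM, while the basal factor TP63 lay at 0.739 to 1.05 CPM. Fibroblast, endothelial and blood markers were at or near 0 for PDGFRA, PDGFRB, THY1, CDH5, VWF, PTPRC, CD3E and CD79A (at most 0.44 CPM), LUM had no row, and DCN (0.101 to 3.86), KDR (2.07 to 5.45), PECAM1 (13.97 to 21.1) and CD14 (17.9 to 48.4 CPM) were above that.

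To show the start regions of the genes that varied most with the epithelial-to-mesenchymal transition (EMT, results below), the promoters of the 4 genes with the largest change are printed here, EPHB6 and EPHB2, which rose, and EPHB3 and EFNA3, which fell. They are RefSeq sequences of GRCh38.p14, 250 bases before to 50 after the gene start, written 5′ to 3′ along the gene, with each CpG dinucleotide in capitals.

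EPHB6, chr7:142862506-142862805, plus strand: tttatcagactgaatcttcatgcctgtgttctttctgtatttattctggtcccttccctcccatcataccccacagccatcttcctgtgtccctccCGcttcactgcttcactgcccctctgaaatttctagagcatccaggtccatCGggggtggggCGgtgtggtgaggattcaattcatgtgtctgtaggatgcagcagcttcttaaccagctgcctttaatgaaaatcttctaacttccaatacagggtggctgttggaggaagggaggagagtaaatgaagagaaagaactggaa
EPHB2, chr1:22710588-22710887, plus strand: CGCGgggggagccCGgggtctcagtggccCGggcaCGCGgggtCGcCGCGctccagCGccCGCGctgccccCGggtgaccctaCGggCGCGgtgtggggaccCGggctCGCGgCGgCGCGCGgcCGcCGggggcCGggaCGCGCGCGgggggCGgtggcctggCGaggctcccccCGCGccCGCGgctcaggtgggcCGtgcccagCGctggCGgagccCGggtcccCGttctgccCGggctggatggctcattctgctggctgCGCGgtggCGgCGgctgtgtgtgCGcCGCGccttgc
EPHB3, chr3:184561535-184561834, plus strand: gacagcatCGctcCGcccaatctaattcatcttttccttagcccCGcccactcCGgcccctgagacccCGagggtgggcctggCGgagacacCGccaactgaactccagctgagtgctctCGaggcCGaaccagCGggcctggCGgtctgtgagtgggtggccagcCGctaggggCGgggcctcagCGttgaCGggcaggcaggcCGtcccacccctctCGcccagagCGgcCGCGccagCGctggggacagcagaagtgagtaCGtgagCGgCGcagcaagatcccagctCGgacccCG
EFNA3, chr1:155078587-155078886, plus strand: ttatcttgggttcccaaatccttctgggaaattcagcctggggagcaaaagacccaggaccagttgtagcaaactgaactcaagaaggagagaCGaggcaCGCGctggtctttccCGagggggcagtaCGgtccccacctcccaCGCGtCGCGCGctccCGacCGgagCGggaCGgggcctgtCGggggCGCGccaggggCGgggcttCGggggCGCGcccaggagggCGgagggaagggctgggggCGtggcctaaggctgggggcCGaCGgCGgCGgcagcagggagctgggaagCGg

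The EPHB6 promoter held 3 CpG and 48.0% G and C, and 19.0% of the 27305 promoters in the table held fewer CpG. The other 9 promoters of the set held 18 to 49 CpG and 63.7% to 83.0% G and C, against a median of 14 CpG and 58.3% over all promoters. EPHB2 held 49 CpG, more than 98.4% of promoters. The windows were also searched on both strands for 3 motifs of factors known from migrating epithelial cells. The E-box CAGGTG, the core bound by factors of the SNAI and ZEB families, was found in EPHB2 and EFNB2, 2 of the 10 promoters, and in 20.6% of all promoters. GGAATG, the core bound by TEAD factors, was found in EPHA2 and in 14.05% of all promoters, and TGANTCA, bound by AP-1, in none of the 10 and in 7.76% of all. These motifs do not overlap in letters.

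In the GENCODE release 29 annotation of GRCh38, EPHB6 (chr7:142855061-142871094, plus strand) begins upstream of the RefSeq start used above, so the printed window lies inside the annotated gene. EPHB2 lies at chr1:22710839-22921500 and EPHB3 at chr3:184561784-184582409, both on the plus strand. EPHA2 (chr1:16124337-16156087, minus strand) and EFNB2 (chr13:106489731-106535662, minus strand) each have an annotated antisense transcript, as does EPHB2. EPHB4 (chr7:100802565-100827521, minus strand) overlaps SLC12A9 on the other strand. EFNA1 (chr1:155127460-155134857) and EFNA3 (chr1:155078872-155087538) lie on the plus strand, and EFNA3 shares its strand and span with the protein-coding AL691442.1, so its counts are uncertain to the extent that reads were shared. EFNA5 (chr5:107376889-107670895, minus strand) and EFNB1 (chrX:68828997-68842147, plus strand) overlap no other annotated gene.

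The first question was how strongly each ligand and receptor was expressed. EFNB2, the ligand that EPHB4 prefers, had the highest level, with 117.8 and 111.6 CPM in the low-resolution plates and 90.6 and 99.3 CPM in the high-resolution plates (mean 104.8 ± 12.2, SD, n = 4 plates). EFNA5 followed with 81.6 and 98.8 CPM against 56.5 and 56.1 CPM. EPHA2, the receptor of ephrin-A ligands that dominates in many epithelia, had 72.9, 45.7, 58.0 and 78.5 CPM in the same order of plates. These 3 genes gave 65.5% of the summed level of the set, and the plate ranges of EFNB2 and EFNA5, and of EFNA5 and EPHA2, overlapped. EPHA2 lay 2.32-fold above the next gene, EFNB1 (27.4 ± 2.28 CPM), and these ranges did not overlap. EPHB4 (27.0 ± 7.002), EFNA3 (24.5 ± 5.70) and EFNA1 (21.4 ± 6.02 CPM) could not be ranked against EFNB1 or each other by the spread over plates. EPHB6 (11.5 ± 2.21) and EPHB3 (10.9 ± 4.47 CPM) lay below them and overlapped with each other, and EPHB2 was lowest with 4.78 ± 1.36 CPM. The highest mean was 21.9-fold above the lowest.

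**Figure D1:**
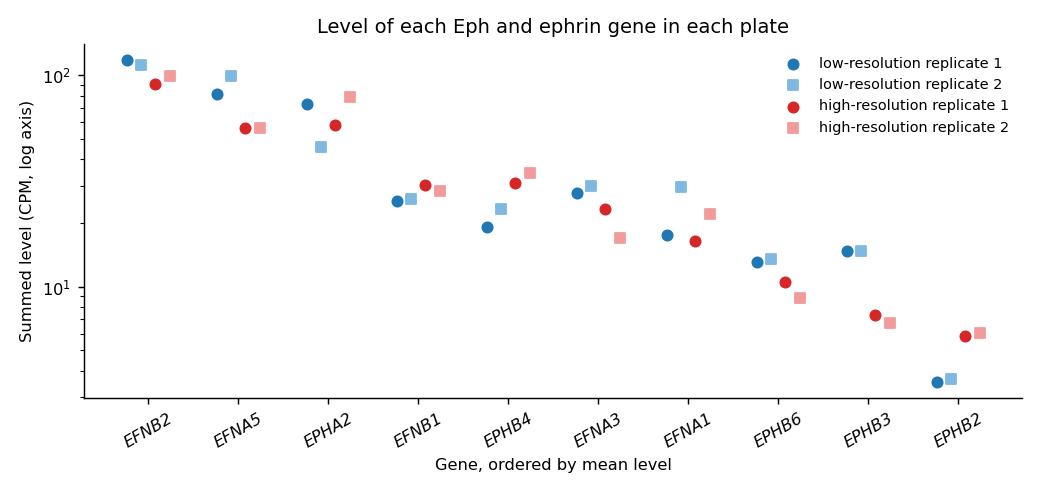
Summed level of each gene in CPM (log axis) for each of the 4 plates, genes ordered by mean level. EFNB2, EFNA5 and EPHA2 lie between 45.7 and 117.8 CPM in every plate, and EPHB2 lies between 3.54 and 6.06 CPM.

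Of the other Eph and ephrin genes, EPHB1 had no row, and 11 genes had a row but low values. EFNA4 reached 2.51 to 5.15 CPM, EPHA4 1.21 to 2.10 CPM and EPHA1 0.606 to 1.22 CPM. EFNA2 had 20 counts and EFNB3 19 counts over all 4 plates together, EPHA3 had 8, EPHA5 had 3, and EPHA6, EPHA7, EPHA8 and EPHA10 had 1 each. EPHA2 was thus the EphA receptor with by far the most counts, 2908 against 75 for EPHA4.

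The share of cells with at least 1 UMI broadly followed the level. EFNB2 was found in 87.3% to 93.2% of the cells of a plate, EFNA5 in 78.4% to 91.5% and EPHA2 in 64.6% to 86.7%. EFNB1 (47.1% to 61.8%), EPHB4 (39.5% to 63.9%), EFNA1 (38.5% to 59.4%) and EFNA3 (39.2% to 48.3%) were found in intermediate shares. EPHB6 varied least between plates (27.8% to 29.5%), EPHB3 was found in 22.9% to 34.7%, and EPHB2 in 8.94% to 19.8%. The study set a minimum of 20% of cells for a ligand and receptor interaction in a tagged population of its high-resolution experiment. Here that limit was applied to single genes over all cells of a plate. Of the 10 genes, 9, all but EPHB2, were found in at least 20% of the cells of every plate. These shares depend on depth. When each cell was thinned to 10000 UMIs, 3 genes (EFNB2, EFNA5 and EPHA2) passed the same limit, EPHB6 was found in 7.22% to 11.9% and EPHB2 in 1.39% to 6.53% of cells. A cell without a UMI can therefore not be taken as a cell without the transcript. Single cells held up to 23 UMIs of EPHA2 and 21 of EFNB2, but at most 5 of EPHB6 or EPHB2.

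**Figure D2:**
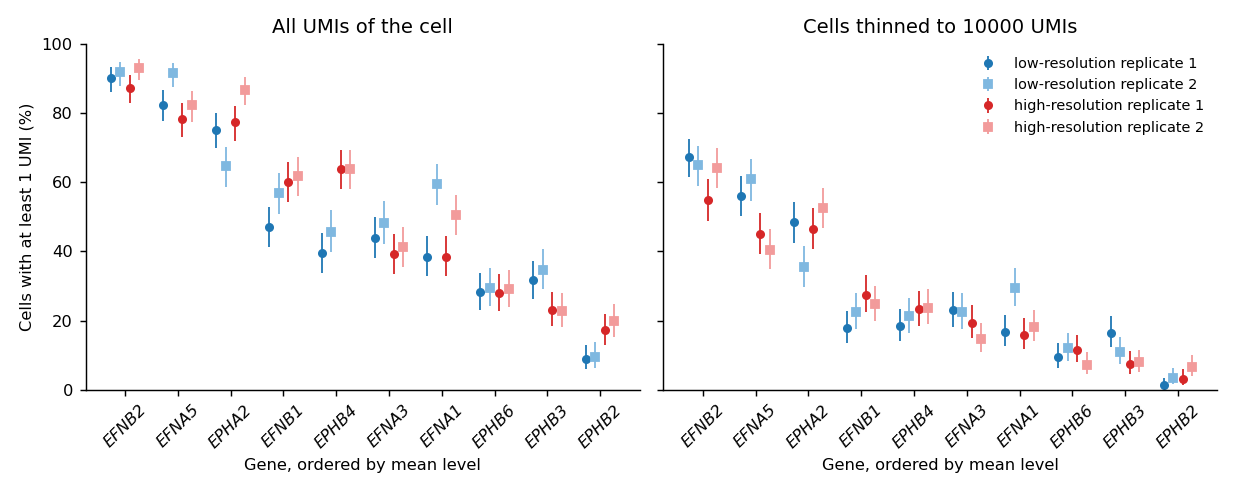
Share of cells with at least 1 UMI (%) for each gene and plate, with exact (Clopper-Pearson) 95% intervals, for all UMIs of a cell (left) and for cells thinned to 10000 UMIs (right). EFNB2 falls from 87.3% to 93.2% of cells on the left to 54.9% to 67.2% on the right, and 3 genes stay above 20% in all plates.

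At 10000 UMIs the variance of the UMIs over cells was close to their mean for EPHB4 (0.959 to 1.06 times), the value that counting alone gives. EFNA3 varied more (1.25 to 1.63 times), as did EPHB6 (1.21 to 1.69 times) and EFNB2 (1.17 to 1.39 times).

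The next question was whether a cell carries both a ligand and a receptor. At full depth most cells did. A UMI for EPHA2 together with 1 for EFNA1, EFNA3 or EFNA5 was found in 69.4%, 63.1%, 73.2% and 81.2% of cells (low-resolution replicates 1 and 2, high-resolution replicates 1 and 2). A UMI for EFNB1 or EFNB2 together with 1 for an EphB receptor was found in 69.8%, 72.7%, 77.3% and 79.9%. Both the A and the B combination were present in 52.9%, 46.1%, 59.8% and 67.2% of cells, and neither in 13.7%, 10.3%, 9.28% and 6.14%. The exact binomial 95% interval, which covers counting error only, was for example 40.1% to 52.3% around the share of 46.1%. The median cell held 5 of the 10 genes in every plate, and between 0 and 1 cell per plate held all 10. At 10000 UMIs the A combination fell to 27.8% to 34.8% and the B combination to 26.4% to 33.6% of cells, with both in 6.69% to 11.6%, and the median cell held 3 of the genes. At that equal depth the high-resolution plates were no longer the highest.

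Among single pairs of the same class, EFNA5 with EPHA2 was the most frequent, in 64.6% ± 5.83 of cells (SD, n = 4 plates), followed by EFNB2 with EPHB4 in 49.8% ± 11.8, a pair known from vessel boundaries. EFNB2 was found with EPHB6 in 26.7% ± 1.58, with EPHB3 in 26.1% ± 5.76 and with EPHB2 in 13.4% ± 5.03. EFNB1, with the same receptors, reached 34.2% with EPHB4 and 9.61% with EPHB2. EPHA2 was found with EFNA1 in 36.9% ± 6.72 and with EFNA3 in 34.3% ± 2.24. In all, 7 of the 11 pairs of the same class were found together in at least 20% of the cells of every plate at full depth, and 1 pair, EFNA5 with EPHA2, at 10000 UMIs. Over all 25 ligand and receptor pairs, of the same or different class, these counts were 11 and 2.

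Whether the 2 genes of a pair went together was asked next. At full depth the receptor was found more often in cells with the ligand than in cells without it in all 4 plates for 9 of the 11 pairs. Over all 25 pairs, of the same or different class, this was so for 16 at full depth and for 3 at 10000 UMIs. Of the 11 pairs of the same class, 2 met it at 10000 UMIs. The first was EFNB2 with EPHB6. EPHB6 was found in 12.5% ± 2.61 of thinned cells with EFNB2 (9.09% to 14.7% over plates) and in 5.84% ± 2.08 of those without (3.85% to 7.81%), and the ranges did not overlap. The second was EFNB2 with EPHB4, where EPHB4 was found in 23.8% ± 2.65 of cells with the ligand and in 18.2% ± 2.93 of those without. For EFNA5 and EPHA2, the most frequent pair of the same class, the values were 46.3% ± 8.13 and 45.3% ± 7.44. Spearman correlations over thinned cells were weak for all 11 pairs, with means over plates of -0.06 to 0.13. EFNB2 with EPHB6 was highest (0.12 to 0.15 over plates), and both genes were also higher in cells with a high EMT score, as described next. For EFNB2 with EPHB6 the mean rho at full depth was 0.10 (0.07 to 0.15 over plates). At 20000 UMIs, with fewer cells, it was 0.04, and the share of EPHB6 was higher beside EFNB2 in 3 of 4 plates. The association thus differed between these settings, and each thinned depth was a single random draw. At 20000 UMIs 1 of the 11 pairs, EFNB1 with EPHB4, had the higher receptor share in all 4 plates.

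Each cell was given an EMT score, the enrichment (GSVA) of mesenchymal genes minus that of epithelial genes. None of the 10 genes is in these lists, of which 64 epithelial and 103 mesenchymal genes had a row. The cells of each plate were split by the score into 3 groups of nearly equal size (bottom, middle and top), 90 to 97 cells in the bottom and in the top group, and counts were summed per group and tested with the plate as a block. The score is a continuous range, and 32 to 42 cells per plate lay within 0.05 of a border. As a check of the split, the epithelial CDH1 fell from 107.3 ± 18.8 CPM in the bottom group to 5.14 ± 3.28 in the top group (SD, n = 4 plates), and the mesenchymal VIM rose from 6.25 ± 2.01 to 287.7 ± 94.4. Markers that are in the lists differ by construction, so these values only describe the split.

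In the top group, 3 of the 10 genes were higher (EPHB6, EPHB2 and EFNB2) and 4 were lower (EFNA3, EPHB3, EFNA1 and EPHA2) by edgeR's quasi-likelihood test with Benjamini-Hochberg adjustment. Over all 11179 genes tested outside the EMT lists, 40.5% passed the same threshold, 20.7% higher and 19.9% lower, and the count of 7 of 10 has to be read against that share. The median size of the change over the 10 genes was 0.59 on the log2 scale, against 0.32 over all genes. The 10 genes were chosen with earlier results of these data known, so these medians are given as a description only. The plot of levels by EMT group shows each plate.

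EPHB6, the receptor without kinase activity, had the largest rise. It went from 4.09 to 9.53 to 26.7 CPM over the bottom, middle and top groups of low-resolution replicate 1, and from 4.59 to 9.10 to 28.1 CPM in replicate 2. In the high-resolution plates it went from 2.98 to 11.9 to 18.02 CPM and from 2.96 to 9.23 to 14.1 CPM. The middle group lay between the others in every plate, and the bottom and top groups did not overlap. The change was 2.47 ± 0.18 (log2, SE), or 5.54-fold (adjusted p = 4.95e-07). The share of cells with an EPHB6 UMI was 11.3% to 15.6% in the bottom and 42.3% to 52.2% in the top group, and at 10000 UMIs it was 2.08% to 5.21% in the bottom and 10.3% to 23.6% in the top group.

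EPHB2, which with EPHB3 positions cells along the intestinal crypt, rose from 1.09, 1.62, 3.44 and 2.96 CPM in the bottom groups of the plates (low-resolution replicates 1 and 2, then high-resolution replicates 1 and 2) to 5.33, 7.80, 8.61 and 8.92 CPM in the top groups. The groups did not overlap, and the change was 1.66 ± 0.27 (log2, SE, adjusted p = 0.000421). Its counts were low, 221 over all plates, and after thinning to 10000 UMIs it fell below the count filter and was not tested. EPHB2 also had the highest correlation of the set with the total UMIs of a cell (mean rho 0.23). At 10000 UMIs its share of cells was 0% to 3.33% in the bottom and 2.11% to 8.25% in the top group. Its mean rho with the EMT score in thinned cells was 0.099 (0.029 to 0.139 over plates). The part of depth in the rise of its level was not tested.

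EPHB3 moved the other way. It fell from 20.7, 23.5, 10.9999 and 10.5 CPM in the bottom groups to 5.96, 8.74, 5.11 and 5.80 CPM in the top groups, which did not overlap, a change of -1.38 ± 0.19 (log2, SE, adjusted p = 0.000134). In the high-resolution plates the middle group was already at 5.08 and 4.08 CPM. EPHB4, the receptor with the most counts of the EphB class, had 17.5, 17.6, 26.8 and 32.3 CPM in the bottom and 22.9, 24.0, 32.6 and 32.8 CPM in the top groups, and the change of 0.19 ± 0.12 did not pass the test (adjusted p = 0.225). EPHA2 was lower in the top group of all 4 plates by a small amount, -0.25 ± 0.09 (log2, SE, adjusted p = 0.0449), and its groups overlapped (50.02 to 83.3 against 43.4 to 76.8 CPM). That call was lost in each of the 4 fits that left out a plate (adjusted p = 0.0671 to 0.147).

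The EphB receptors thus differed in make-up along the score. Their summed level rose from 45.9 ± 2.50 CPM in the bottom to 63.9 ± 3.53 CPM in the top group (SD, n = 4 plates). EPHB3 gave 47.8%, 49.7%, 24.9% and 21.5% of that sum in the bottom groups and 9.79%, 12.7%, 7.95% and 9.42% in the top groups. EPHB6 gave 9.43%, 9.71%, 6.73% and 6.07% in the bottom and 43.8%, 40.9%, 28.0% and 22.8% in the top groups. EPHB4 gave 51.1% ± 14.6 and 44.1% ± 9.15.

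**Figure D3:**
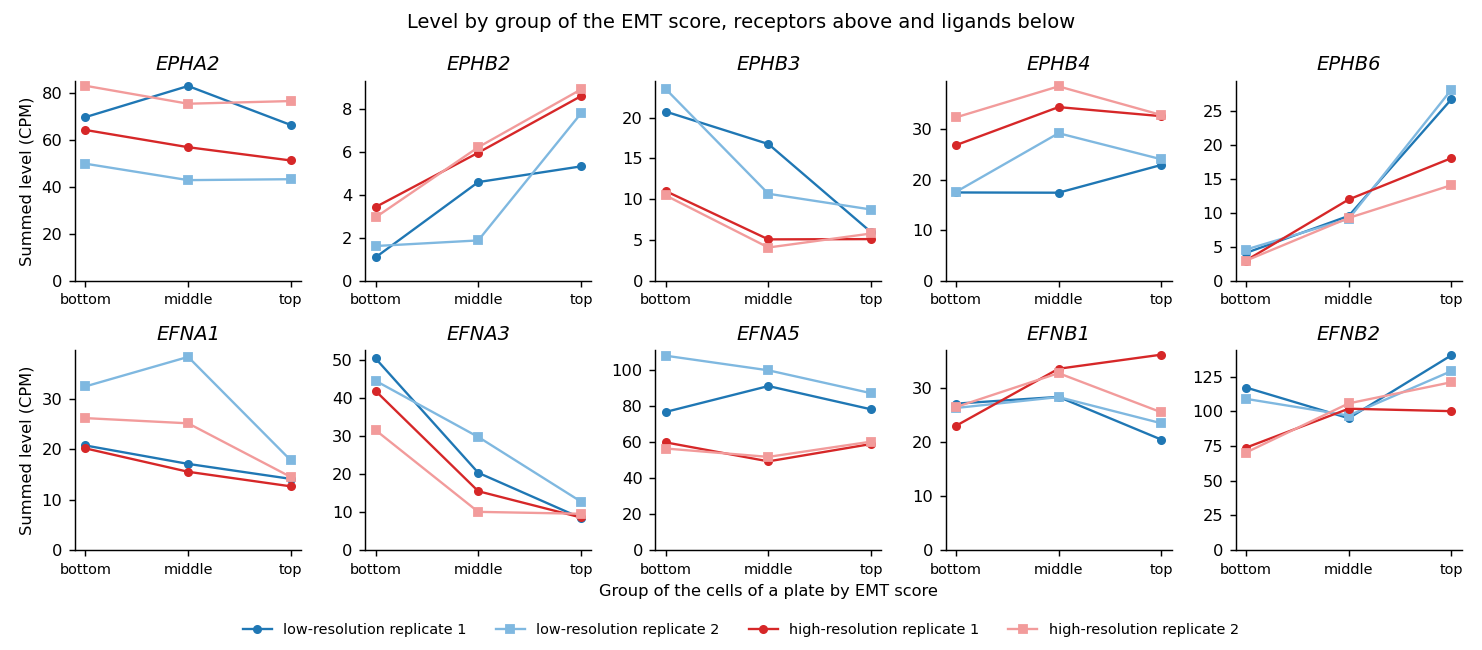
Level (CPM) of each gene in the bottom, middle and top group of cells by EMT score, 1 line per plate, each panel starting at 0. EPHB6 and EPHB2 rise and EFNA3 and EPHB3 fall from the bottom to the top group in all 4 plates.

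Of the ligands, EFNA3 changed most. It fell from 50.5, 44.6, 42.0 and 31.6 CPM in the bottom groups to 8.47, 12.8, 8.61 and 9.59 CPM in the top groups, with the middle group between (10.1 to 29.8 CPM) and no overlap of bottom and top. The change was -2.14 ± 0.16 (log2, SE), a 4.42-fold lower level (adjusted p = 6.24e-07), and the share of cells with a UMI was 59.8% to 77.3% in the bottom and 19.6% to 30.9% in the top group. EFNA1, the best known ligand of EPHA2, fell from 20.7, 32.4, 20.2 and 26.2 CPM to 14.1, 17.8, 12.6 and 14.5 CPM, also without overlap (-0.82 ± 0.13, adjusted p = 0.000315). EFNA5 did not pass the test (-0.13 ± 0.09, adjusted p = 0.304), being higher in the top group of 2 plates and lower in the other 2. Without the limit on the mitochondrial share of a cell it passed (-0.24, adjusted p = 0.0277). EFNA5 gave 52.2% ± 4.30 of the ephrin-A sum in the bottom and 74.1% ± 2.55 in the top group, while that sum went from 142.3 ± 31.9 to 95.7 ± 17.1 CPM.

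EFNB2 was higher in the top group of all 4 plates, with 117.2, 109.0, 73.8 and 70.3 CPM in the bottom and 140.4, 129.0, 100.1 and 121.0 CPM in the top groups. The ranges overlapped between plates, and the change was 0.36 ± 0.10 (log2, SE, adjusted p = 0.0161). The call was lost without high-resolution replicate 1 (adjusted p = 0.0553) or replicate 2 (adjusted p = 0.111) and at 10000 UMIs (adjusted p = 0.0995). EFNB1 had 22.9 to 27.0 CPM in the bottom and 20.4 to 36.1 CPM in the top groups and did not pass the test (-0.04 ± 0.16, adjusted p = 0.875).

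Of the low family members, EPHA4 rose from 0.468 ± 0.41 to 3.52 ± 1.24 CPM (2.65 ± 0.56, log2, SE, adjusted p = 0.00265) and EFNA4 fell from 4.70 ± 2.38 to 1.49 ± 0.30 CPM (-1.58 ± 0.40, adjusted p = 0.00786). EPHA1 had a mean of 1.56 CPM in the bottom groups, was listed at 0 in the top group of all 4 plates, and was not tested.

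Depth and mitochondrial share moved with the score. The mitochondrial share was 31.0% to 32.8% in the bottom groups and 26.0% to 29.3% in the top groups. The median UMIs per cell were 31962 and 35402.5 in the bottom and 26713 and 29194.5 in the top groups of the low-resolution plates, but 37422 and 36153 against 37276 and 40401 in the high-resolution plates. With every cell thinned to 10000 UMIs before scoring, EPHB6, EFNA3, EPHB3 and EFNA1 passed the test in the same direction, 4 of the 9 genes tested there, where 34% of 8551 genes outside the EMT lists passed. The part of the mitochondrial share was not tested.

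Whether these changes differ between the experiments was asked with an interaction term. None of the 10 genes passed (edgeR quasi-likelihood, lowest adjusted p = 0.206 for EFNB2), 2 had an unadjusted p under 0.05 (EFNB2 and EFNB1), and 2.18% of all genes passed. The change of EFNB2 was 0.39 ± 0.15 larger (log2, SE) in the high-resolution plates, and that of EFNB1 0.60 ± 0.26 larger (adjusted p = 0.274). For EPHB6 the difference was -0.21 ± 0.41.

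Over single cells the same order appeared in the Spearman correlation with the EMT score, given per plate as a description. EPHB6 had a rho of 0.31 to 0.33 in the 4 plates, EPHB2 0.17 to 0.21 and EFNB2 0.08 to 0.34. EFNA3 had -0.50 to -0.31, EPHB3 -0.28 to -0.14 and EFNA1 -0.19 to -0.09. EPHB4 (0.05 to 0.08), EFNA5, EFNB1 and EPHA2 were close to 0. Thinning to 10000 UMIs lowered the size of the first 6 (EPHB6 to a mean of 0.20, EFNA3 to -0.24), and EFNB2 was then negative in 1 plate (-0.02). Each of the 6 followed both sides of the score. EFNA3 had a mean rho of 0.40 with the epithelial and -0.32 with the mesenchymal score, and 0.32 with CDH1. EPHB6 had -0.32 and 0.30, with 0.34 for FN1 and -0.32 for EPCAM. Of the 4 markers, EPHB2 was highest with VIM (0.21). EPHB4 had a higher rho with cell cycle genes than with the EMT score, with a mean rho of 0.18 (0.12 to 0.24 over plates) with S-phase genes and 0.18 (0.11 to 0.26) with G2/M genes, and 0.12 for both at 10000 UMIs. Its mean rho with the total UMIs of a cell was as large, 0.18 (0.12 to 0.34). EPHB2 had 0.17 with both cell cycle scores at full depth and 0.08 and 0.07 at 10000 UMIs. EFNA3 had -0.17 with S-phase and -0.14 with G2/M genes at full depth, and -0.13 and -0.11 at 10000 UMIs. These values of EFNA3 were negative in all 4 plates at both depths. These scores rest on sparse counts, and a rho of that size is weak.

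**Figure D4:**
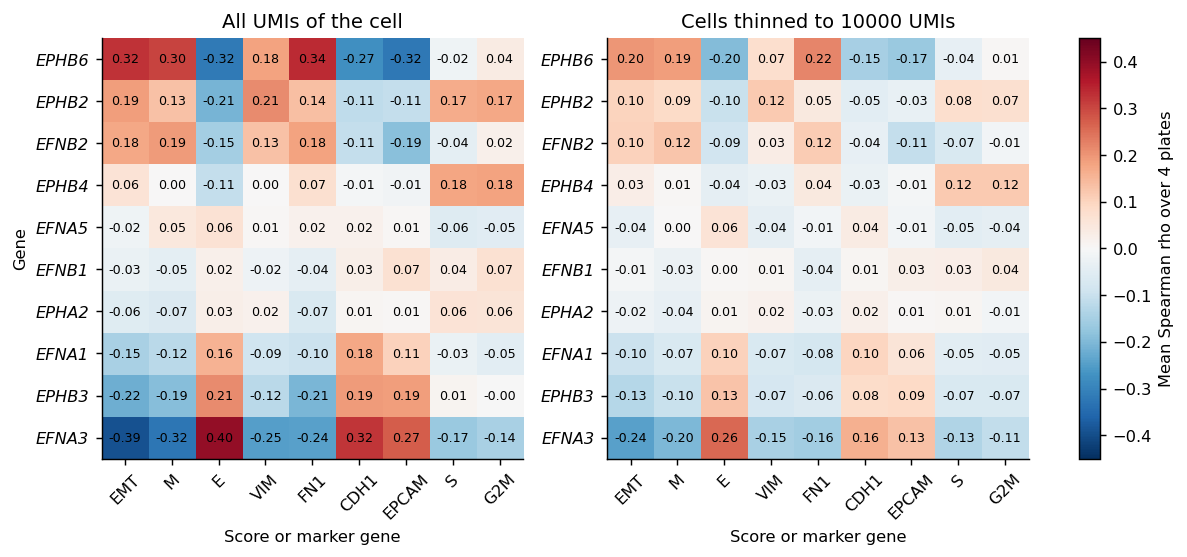
Mean Spearman rho over the 4 plates between each gene and the EMT, mesenchymal (M) and epithelial (E) scores, 4 marker genes and 2 cell cycle scores (S, G2M), for all UMIs (left) and cells thinned to 10000 UMIs (right). EFNA3 has the lowest (-0.39) and EPHB6 the highest (0.32) value with the EMT score on the left, and on the right these are -0.24 and 0.20.

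The pairs found in the same cell shifted accordingly along the score. EFNB2 with EPHB6 was found in 14.4%, 14.4%, 11.3% and 10.3% of cells in the bottom groups. The top groups had 46.4%, 47.8%, 42.3% and 42.3%, with no overlap. EFNB2, with or without EPHB6, was found in 85.6% to 94.4% of bottom-group and 87.6% to 98.97% of top-group cells. EPHB6, with or without EFNB2, was found in 11.3% to 15.6% and 42.3% to 52.2%. The share of this pair thus lay close to that of EPHB6. Shares expected from the single genes were not computed for any pair. EFNB1 with EPHB6 went from 8.41% ± 0.90 to 26.0% ± 2.56 (SD, n = 4 plates) and EFNB2 with EPHB2 from 7.34% ± 2.47 to 22.2% ± 6.60. EFNB2 with EPHB3 went from 38.8% ± 8.82 down to 18.2% ± 3.43, and EFNA3 with EPHA2 from 55.0% ± 4.82 down to 19.9% ± 5.46. EFNA5 with EPHA2, the most frequent pair of the same class, was found in 67.4% ± 4.95 of cells in the bottom and 66.2% ± 8.49 in the top groups. It was higher in the top group of 2 plates and lower in the other 2. EFNB2 with EPHB4 was found in 39.2%, 42.2%, 57.7% and 51.5% of cells in the bottom and in 41.2%, 42.2%, 61.9% and 67.01% in the top groups, higher in 3 plates and equal in 1. At 10000 UMIs EFNB2 with EPHB6 lay at 1.04% to 4.17% in the bottom and 7.22% to 21.3% in the top groups, and EFNA3 with EPHA2 at 13.3% to 18.8% and 2.06% to 5.62%.

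**Figure D5:**
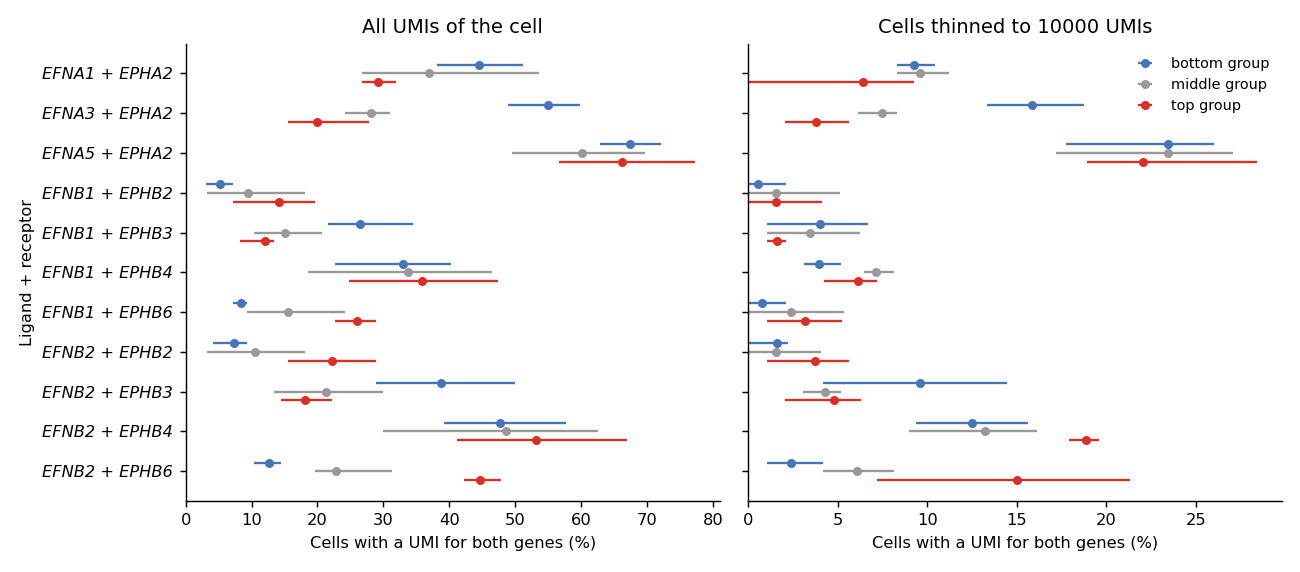
Share of cells (%) with a UMI for both genes of a pair in the bottom, middle and top group by EMT score, for all UMIs (left) and cells thinned to 10000 UMIs (right). Points are means and bars the range over 4 plates. EFNB2 with EPHB6 moves up from 12.6% to 44.7% and EFNA3 with EPHA2 down from 55.0% to 19.9% on the left.

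The high- and low-resolution plates were then compared with each plate as 1 sample. EPHB3 was lower at high resolution, with 14.8 and 14.8 CPM in the low-resolution and 7.35 and 6.72 CPM in the high-resolution plates (-1.04 ± 0.19, log2, SE, adjusted p = 0.0048). EFNA5 was lower too, with a difference of -0.65 ± 0.13 (adjusted p = 0.00854). EPHB4 was higher, with 19.2 and 23.3 CPM at low and 30.9 and 34.6 CPM at high resolution (0.66 ± 0.16, adjusted p = 0.0192). Thus 1 of the 10 genes was higher and 2 were lower, where 12.4% of all 12437 genes tested passed, 6.26% higher and 6.18% lower. EPHB2 was 1.69-fold higher at high resolution (3.54 and 3.67 against 5.86 and 6.06 CPM) and EFNA3 1.40-fold lower, but neither passed (adjusted p = 0.0654 and 0.0897). The difference of EFNA3 was -0.49 (log2) with all plates. It was -0.73 without high-resolution replicate 1 and -0.25 without high-resolution replicate 2, each with a single high-resolution plate left. EPHA2, EPHB6, EFNA1, EFNB1 and EFNB2 differed by at most 0.43 on the log2 scale (adjusted p = 0.162 to 0.496).

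Other features of the plates moved with this comparison. Low-resolution replicate 1 was on a flow cell of its own by the names of the deposited files. Without it, the plates left shared 1 flow cell by those names, but 1 low-resolution plate remained, so only sizes are given. The differences were then -1.07 for EPHB3, -0.81 for EFNA5 and 0.49 for EPHB4 (log2). EPHB4 had 0.59 without high-resolution replicate 2, and EFNA5 had -0.46 without low-resolution replicate 2, again with 1 plate left in a group. CDH1 lay at 74.1 and 71.2 CPM in the low- and 44.8 and 43.7 CPM in the high-resolution plates, and FN1 at 523 and 422 against 797 and 771 CPM, and the mix of sorted regions cannot be told apart from the experiment. Its part in the results on EPHB3, EFNA5 and EPHB4 was not tested.

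Genes that act in Eph and ephrin signaling inside the cell were followed from a list of adaptors, kinases, exchange factors and proteases. Of 42 tested in the comparison of EMT groups, 13 rose, 7 fell and 22 did not pass, where 40.5% of all genes passed. The largest rise was in NGEF (ephexin, an exchange factor that binds EphA receptors), from 3.06 ± 0.66 to 18.9 ± 5.25 CPM (2.55 ± 0.19, log2, SE, adjusted p = 8.59e-07). The SRC family kinase FYN rose from 4.34 to 16.6 CPM and the kinase ABL2 from 99.1 to 220.5 CPM, and the adaptors SHC1 and ANKS1B rose by 1.29 and 1.20 on the log2 scale. The adaptor GRB7 fell most, from 13.3 ± 2.88 to 1.49 ± 1.11 CPM (-3.20 ± 0.35). RGS3 and the phosphatase PTPN13, both known to bind ephrin-B tails, fell by 2.21 and 1.81 on the log2 scale, and PICK1 and NCK2 each by 0.88. In these 10 genes the bottom and top groups did not overlap over plates. They were named for the largest called changes in this comparison, so the lack of overlap is no separate result. Between the experiments, 1 of 47 tested genes of the list was higher and 7 were lower at high resolution, where 12.4% of all genes passed, 6.26% higher and 6.18% lower.

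Genes most like the 3 members found in over 50% of cells of every plate were sought among 4388 genes in thinned cells, by mean Spearman rho over the 4 plates. No gene came close to any of them. EFNB2 was most like ITGB1 (0.14), SEMA3C (0.14) and PXDN (0.14) and least like ZFAND1 (-0.12), LLGL2 (-0.12) and MAL2 (-0.11). EFNA5 was most like MSLN, TPD52L1 and C1GALT1 (0.14 to 0.15) and least like CFL1, NPM1 and ANXA2 (-0.16 to -0.14). EPHA2 was most like DUSP5, CAMK2G and ARFGAP3 (0.10 to 0.11) and least like RPL35A, RPL13 and ERGIC1 (-0.10). Correlations of this size in sparse counts are given as values only.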

How the data were processed

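SORT-seq libraries of 4 plates were used, 2 per experiment. According to the labels, reads were mapped with STAR 2.7.3a to hg38 and analyzed with Seurat 4. The deposited values are expected counts per gene and well, in which the authors corrected the UMI number for 4096 possible UMI sequences. They were turned back to whole UMIs (within 1e-09) for thinning and for the UMIs per cell, and the expected counts were rounded for the count tests. Correlations at full depth used log values of the expected counts. A well was kept if it held 2000 to 9000 features and less than 40% of its counts were mitochondrial, and 167 wells were removed by the mitochondrial limit, 222 by the feature minimum and 1 by the maximum. Thinning to 10000 UMIs left out 2 to 7 cells per plate. Doublets were not called. Spike-ins (0.833% to 1.38% of transcripts) were left out of CPM, of the count tests and of the median transcripts per cell. They were included in the transcripts per plate and in the features and total counts used for the cell limits.

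Counts were summed per plate, or per plate and EMT group (3 groups of cells by EMT score), and tested with edgeR 4.0.16 (TMM, filterByExpr, quasi-likelihood test, Benjamini-Hochberg adjustment, threshold 0.05), with the plate as a block for EMT groups. DESeq2 1.42.0 and other filters, scores and depths were alternatives. R 4.3.3, Python 3.11.15, NumPy 2.4.6, SciPy 1.17.1, pandas 2.3.3 and numba 0.67.0 were used, and the tests were tried on simulated counts. The study describes the plates of an experiment as biological replicates. In the comparison of experiments, p-values measure the spread between these plates. In the comparison of EMT groups, they measure the spread over all 4 plates of the change within a plate. The genes named are the 10 members, the rest of their family, the 5 signaling genes with the largest called change in each direction, and the 3 nearest and farthest genes of members present in 50% or more of the cells in all plates. The members and lists were chosen with earlier results of these data known.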

Additional observations from a re-analysis of the deposited data

Results flagged for a closer look

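Wells removed by the mitochondrial limit (41, 50, 43 and 33 wells per plate) were outside every comparison and held higher levels of some members than the kept cells in all 4 plates. With mitochondrial counts left out of the total, the 10 genes together had a mean of 642.2 CPM in the removed wells and 526.1 CPM in the kept cells. EPHB3 had 30.4 against 15.6 CPM, with ratios of 1.38 to 3.64 over plates, and EFNA3 had 63.2 against 34.9 CPM, with ratios of 1.00 to 3.03. EFNA5 had 147.0 against 104.5 CPM and EFNA1 40.0 against 30.5 CPM. EPHB2 and EPHB4 were lower in the removed wells in all 4 plates. No test was run on these wells.

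EPHB6 in the middle group lay at 11.9 CPM in high-resolution replicate 1 and at 9.10 to 9.53 CPM in the other plates, a gap over Dixon's 95% critical value for 4 values. It was 1 of 51 groups of 4 plates looked at, and chance flags about 1 in 20.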

How the results depend on the processing

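With 2 plates per experiment, depth and single plates set the limits. Without the low-count filter 5 members and 2146 genes passed between experiments (3 and 1547 with it), with EPHB2 (adjusted p = 0.0343) and EFNA3 (adjusted p = 0.0427) added. Leaving out 1 plate gave 982 to 1172 genes called between experiments and 3709 to 3836 between bottom and top groups (4529), with 2 to 4 and 5 to 6 members. At 10000 UMIs 4 members and 2904 genes passed between bottom and top groups, and 3 members reached 20% of the cells in all plates. The mean share of cells with an ephrin-A ligand and EPHA2 was 71.7% at full depth, 57.6% at 20000 and 30.5% at 10000 UMIs, and that with an ephrin-B ligand and an EphB receptor 74.9%, 57.1% and 30.3%. Between experiments, the difference of EPHA2 ranged from -0.013 to 0.58 (log2) and that of EFNA1 from -0.62 to 0.21 when 1 plate was left out, both turning without low-resolution replicate 2 (-0.013 and 0.21). The change of EFNB1 between bottom and top groups turned to 0.030 with 4 groups in place of 3 and ranged from -0.28 to 0.094 when 1 plate was left out (0.094 without low-resolution replicate 1, 0.0049 without replicate 2). None of these 3 genes was called there with all plates. The call on EPHA2 between bottom and top groups was also lost with DESeq2 (adjusted p = 0.264), with the mean z-score difference (0.0645) and without the count filter (0.05004). The cause was not tested. Replicate numbers did not pair the plates (correlation of deviations -0.02 over genes), and with the replicate block 4 members and 2023 genes passed between experiments. Of the members' values under alternatives, 90 of 100 between experiments and 104 of 119 between bottom and top groups kept direction and side of the threshold.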
